A study of Mus musculus with 10 samples.

Results

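The late fetal heart was compared with the mid-fetal heart by long RNA sequencing of mouse heart tissue at embryonic day 17.5 (E17.5) and embryonic day 14.5 (E14.5). Both stages come from C57BL/6 mice with no treatment or engineered allele named, and each gave 1 library. The series also holds 1 long RNA library each of E10.5, newborn and adult hearts, used below only to show how the same loci stood at other stages. The labels give heart tissue as the source and cardiomyocyte as the cell type, so the values are described as those of heart tissue. Whether several hearts were pooled, and the sex of the embryos, are not given in the sources used here. Members were all loci with at least 1 FPKM (fragments per kilobase, scaled to the number of mapped fragments) at E17.5 or at E14.5, which were 13311 of the 35299 loci in the table, or 37.7%. Of these, 12230 reached 1 FPKM in both libraries, 512 at E17.5 alone and 569 at E14.5 alone. The members closest to the limit had a higher value of 1.00 FPKM, such as a locus at 1.00067 FPKM at E17.5 and 0.614 at E14.5, and the closest locus outside it was at 0.691 FPKM at E17.5 and 0.999992 at E14.5.

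Between these stages the mouse heart, already septated into its chambers, grows by division of its muscle cells, thickens its compact ventricular wall, and extends its coronary vessels and conduction system. Its muscle cells build more sarcomeres and mitochondria as birth approaches, while the main change of fuel and of contractile protein forms comes after birth. Whole heart tissue also holds endothelial cells, fibroblasts, smooth muscle, epicardium, nerve cells and blood, and in bulk RNA fewer cells of a type and less RNA per cell cannot be told apart.

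The table gives each locus as a position on build mm9 with transcript identifiers and no gene symbols, and 0 of its identifiers matched the name tables used here. Loci are therefore given by position, as the table writes it, and the tissue label could not be checked against marker genes. With 1 library per stage there was no replicate spread and no test, and "higher" and "lower" mean a difference of at least 1 in log2(FPKM + 1), E17.5 minus E14.5, which is a 2-fold difference on that scale. Depth is not stated in the table. Read from the commonest ratio among 495 loci under 0.05 FPKM in both, near which 48.7% of them lay, the E14.5 library was 1.05 times as deep as the E17.5 library, and the value of 1 fragment in such loci was about 0.0321 FPKM at E17.5. The summed FPKM was 1007612 at E17.5 and 996331 at E14.5. It was 6733743 at E10.5, where 1 locus held 84.8% of it, and without the 10 most abundant and the mitochondrial loci it was 558409 at E17.5, 508393 at E14.5 and 534969 at E10.5.

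Most loci stood at about the same level at both stages. Of the 13311 loci, 228 were higher at E17.5 (1.71%) and 206 were lower (1.55%), or 3.26% in either direction. The median difference was 0.0055, with a 95% order-statistic interval for the median of -0.000105 to 0.0106. That interval treats the loci as independent and holds no spread between animals or libraries. A total of 11405 loci (85.7%) differed by less than 0.5 log2 units, and the 5th and 95th percentiles were -0.53 and 0.64. At least 4-fold differences were rarer, with 36 loci higher (0.27%) and 49 lower (0.368%).

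**Figure D1:**
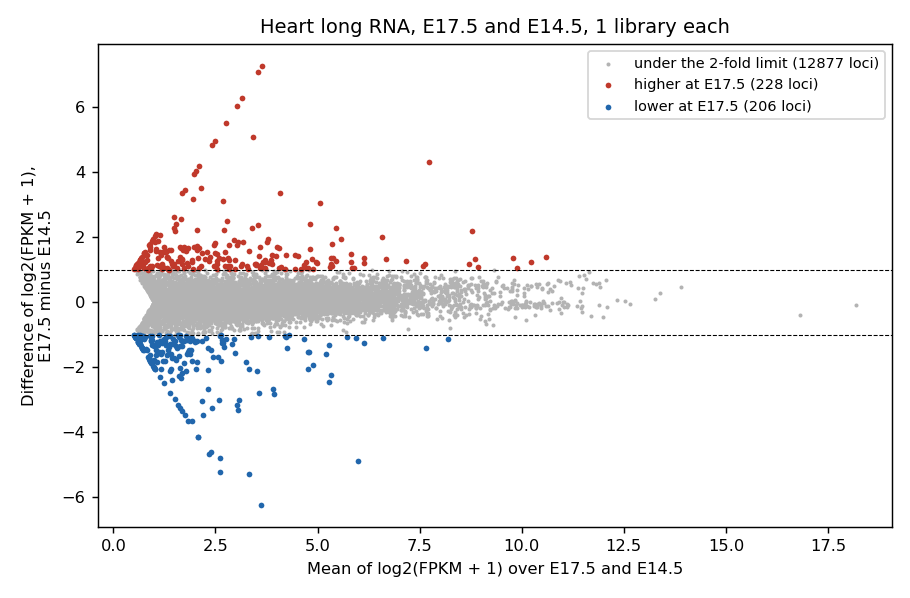
Each point is 1 of 13311 loci, with the mean of log2(FPKM + 1) over E17.5 and E14.5 on the x axis and the difference, E17.5 minus E14.5, on the y axis; dashed lines mark the 2-fold limit. The 228 higher loci are red and the 206 lower loci blue, and the straight outer edges are loci listed at or near 0 in 1 of the libraries.

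The direction of the differences went with the mean level over the 5 libraries. That mean also takes in E10.5 and adult values, so a locus can enter a class through another stage. For example, chr11:31445796-31449654 had 28.3 FPKM at E17.5 and 8.29 at E14.5, but 555 in the adult. On the lower side, chr7:110990151-110991676 had 1.12 FPKM at E17.5 and 5.40 at E14.5, but 6900 at E10.5. The classes are thus not classes of fetal level. Among the 745 loci with a mean of at least 100 FPKM over the 5 libraries, 21 were higher (2.82%) and 6 lower (0.805%), and the median difference was 0.17. Among the 5643 loci at 10 to 100 FPKM, 81 were higher (1.44%) and 30 lower (0.532%), and the median was 0.03. At 1 to 10 FPKM the lower loci were more frequent, 108 of 6314 (1.71%) against 81 higher (1.28%), and under 1 FPKM 62 of 609 were lower (10.2%) and 45 higher (7.39%). Each library was also rescaled to the same sum of nuclear loci without the 10 most abundant. The median of the class of at least 100 FPKM was then 0.04, and that of all loci was -0.12. In that class 17 loci were still higher and 6 lower.

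Calls were counted by the length of the locus. Of 24 compared loci under 300 bases, 10 were higher and 8 lower, so 75% were past the limit, against 3.26% of all compared loci. The share was 10.6% at 300 to 1000 bases, 6.84% at 1 to 10 kb, 2.48% at 10 to 50 kb and 2.37% at 50 kb or more. FPKM divides by transcript length, so a few fragments can give a short locus a high value. The part of this in the calls was not tested. Of the loci without a transcript identifier, 48 of 545 passed the limit (8.81%), with 24 in each direction, against 3.02% of the 12766 loci that carry one.

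**Figure D2:**
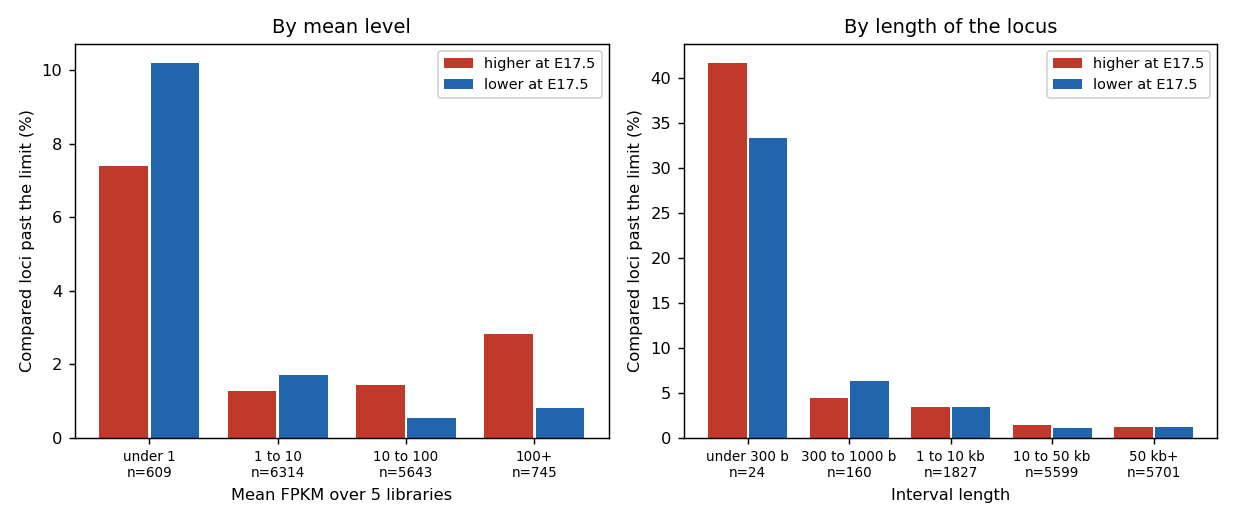
Bars give the percentage of compared loci that were higher (red) or lower (blue) at E17.5 than at E14.5, by mean FPKM over the 5 libraries (left) and by interval length (right), with the number of loci under each class. Higher loci outnumber lower ones from 10 FPKM upward, and of the 24 loci under 300 bases 41.7% were higher and 33.3% lower.

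The mitochondrial chromosome carries genes for subunits of the respiratory chain and ATP synthase together with ribosomal and transfer RNAs, and its 8 loci were all above their E14.5 level at E17.5. Their differences ran from 0.58 to 1.18 with a median of 0.85, and 2 of the 8 passed the 2-fold limit, against 1.71% of all loci in that direction. The most abundant, at chrM:5326-6938, had 4207 FPKM at E17.5, against 2808 at E14.5, 1.50 times as much. The locus at chrM:69-852 had 60.0 FPKM at E17.5 and 25.9 at E14.5, and the locus at chrM:7009-7699 had 24.1 FPKM at E17.5 and 10.8 at E14.5. These were the members past the limit, with differences of 1.18 and 1.09. The locus at chrM:12405-15288 had 257 FPKM at E17.5 and 152 at E14.5, and that at chrM:1148-3703 had 206 FPKM at E17.5 and 117 at E14.5. Of the remaining loci, chrM:9875-11542 had 92.2 FPKM at E17.5 and 51.0 at E14.5, and chrM:3848-4933 had 87.9 FPKM at E17.5 and 48.1 at E14.5. The least abundant, chrM:7765-8607, had 4.00 FPKM at E17.5 and 1.66 at E14.5.

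Summed over the 8 mitochondrial loci, the level was 4938 FPKM at E17.5 (0.490% of all FPKM) and 3214 FPKM at E14.5 (0.323%). The other stages had sums of 3215 FPKM at E10.5 (0.0477%), 10538 in newborn (1.08%) and 33663 in adult hearts (3.47%). In FPKM the sum was about the same at E10.5 and E14.5, while as a share of all FPKM it was lower at E10.5, where 1 locus held 84.8% of the library's sum. All 8 loci stayed above their E14.5 level under each scaling tried, with differences from 0.45 to 1.05 under the nuclear scaling, where 1 locus was past the limit.

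**Figure D3:**
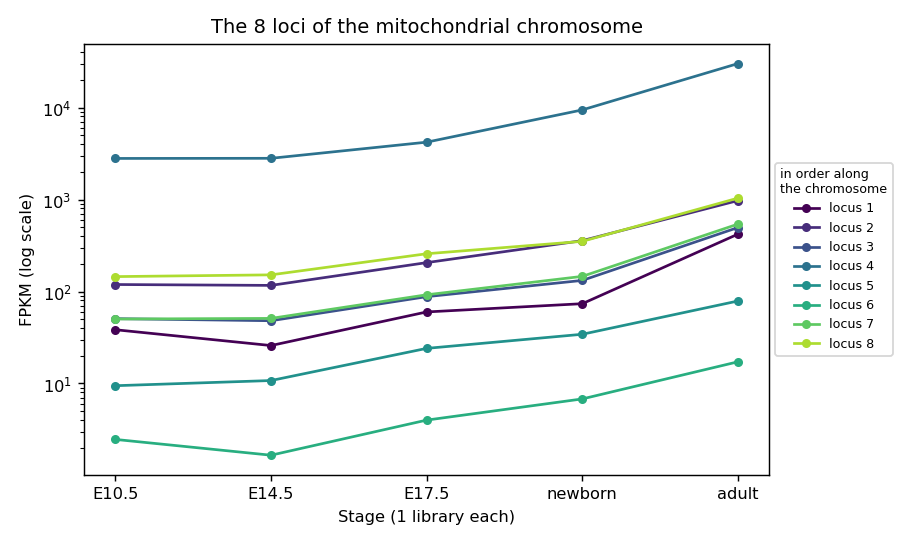
Lines give the FPKM (log scale) of the 8 loci of the mitochondrial chromosome at the 5 stages, 1 library each. Every locus stands above its E14.5 level at E17.5, and the most abundant has 4207 FPKM at E17.5, against 2808 at E14.5, and 30097 in the adult.

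None of the 10 most abundant loci at E17.5 passed the 2-fold limit, with 7 differences above 0 and 3 below, from -0.41 to 0.67. The most abundant, at chr9:78023097-78023440, carries no identifier and had 291528 FPKM at E17.5 (28.9% of the summed FPKM) and 308290 at E14.5 (30.9%). It is 343 bases long, so its FPKM also rests on division by a short length. Over the 5 libraries its value lay between 201193 FPKM (adult) and 314714 FPKM (newborn). The second, at chr4:43505656-43505931, had 100349 FPKM at E17.5 and 133163 at E14.5. Of the longer loci, chr5:122543065-122588071 had 17843 FPKM at E17.5 and 13001 at E14.5, and the other libraries had 8868 at E10.5, 26861 in newborn and 20705 in adult hearts. The locus at chr1:137715174-137755463 had 5426 FPKM at E17.5 and 3399 at E14.5, with 1503 at E10.5, 6214 in newborn and 10150 in adult hearts. For both, the fetal difference lies within a series of values that also rises before E14.5. Both were chosen after their values were seen, and other long loci of the 10 took other courses. The locus at chr10:127979026-127986566 was lower at each later stage, from 6949 FPKM at E10.5 to 2749 in the adult. The locus at chr12:70258711-70260057 had 6034 FPKM at E10.5, 5869 at E14.5 and 5947 at E17.5.

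The 10 largest higher differences among loci with at least 10 FPKM in either library came mostly from short loci listed at 0 in 1 library. Of the 10, 8 were listed at 0 at E14.5, 7 were under 300 bases and 6 carried no identifier. The largest, at chr11:49477111-49478620, had 154 FPKM at E17.5 and was listed at 0 at E14.5, with 0.424 FPKM at E10.5, 0.410 in newborn and 0.820 in adult hearts. This locus of 1509 bases was thus high in the E17.5 library alone. The locus with identifier uc008wzh.1, at chr5:32387168-32387323, had 135 FPKM at E17.5 and was listed at 0 at E14.5. It stood at 175 at E10.5 and 155 in the newborn, and was also listed at 0 in the adult. There the E14.5 value stood apart from E10.5 and E17.5, its neighbours in time.

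Of these 10 higher loci, 2 were above 0 at E14.5, and both are over 1 kb long. The locus at chr18:43923980-43927053 had 947 FPKM at E17.5 and 46.7 at E14.5, a ratio of 20.3, with 0.394 at E10.5 and a listed 0 in newborn and adult hearts. The locus with identifier uc009ckb.1, at chr6:78416261-78418868, had 61.2 FPKM at E17.5 and 0.842 at E14.5, a ratio of 72.6, and was listed at 0 in the other 3 libraries. Both were seen at these fetal stages and hardly elsewhere in the series. The other 6 had differences from 4.19 (chr2:8963203-8963398) to 6.28 (chr15:58679221-58679379), and all were under 300 bases and listed at 0 at E14.5.

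The 10 largest lower differences were mainly longer loci, with 1 under 300 bases, and 5 were listed at 0 at E17.5. The locus with identifier uc009kgt.1, at chr7:147272908-147323149, had 0.417 FPKM at E17.5 and 106 at E14.5, with 20.6 at E10.5, 0.126 in newborn and 0.557 in adult hearts. The locus at chr6:41005881-41498351, which joins 36 transcript identifiers over 492470 bases, had 0.614 FPKM at E17.5 and 61.7 at E14.5, with 0.290 at E10.5, 0.585 in newborn and 1.90 in adult hearts. The locus at chr13:113884034-113891189 had 0.164 FPKM at E17.5 and 31.5 at E14.5, and that at chr9:44777770-44788507 was listed at 0 at E17.5 and had 24.7 FPKM at E14.5. For 8 of the 10 lower loci E14.5 was the highest of the 5 libraries, beside 1297 of all 13311 compared loci. The choice of lower loci itself favours this. Of the 10, 5 were under 1 FPKM in each of E10.5, newborn and adult, beside 3.1% of all compared loci. The 10 were drawn from the 6544 loci with at least 10 FPKM in either library. The values over all compared loci are thus not matched to them.

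The exceptions were the locus with identifier uc008zwv.1, at chr5:135178465-135250384, and a locus at chr7:111000267-111001721. The first was listed at 0 at E17.5 and had 36.2 FPKM at E14.5, but 22.2 at E10.5, a listed 0 in newborn and 74.8 in adult hearts. The second had 10.7 FPKM at E17.5 and 348 at E14.5, and 29718 at E10.5, so that its fetal difference of -4.90 continued a far larger one. Of the rest, 1 of several loci that share the interval chr13:21925613-22128136 had 0.0552 FPKM at E17.5 and 25.1 at E14.5. The most abundant locus of that interval had 41.0 FPKM at E17.5 and 88.9 at E14.5. Another there hardly differed, at 8.96 FPKM at E17.5 and 8.91 at E14.5. Listed at 0 at E17.5 were chr13:19253906-19308893, with 16.7 FPKM at E14.5, and chr10:80217950-80270393, with 11.7 FPKM at E14.5. The locus at chr4:69586914-69587205 was also listed at 0 at E17.5 (difference -4.17) and had 8.26 FPKM in the newborn.

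**Figure D4:**
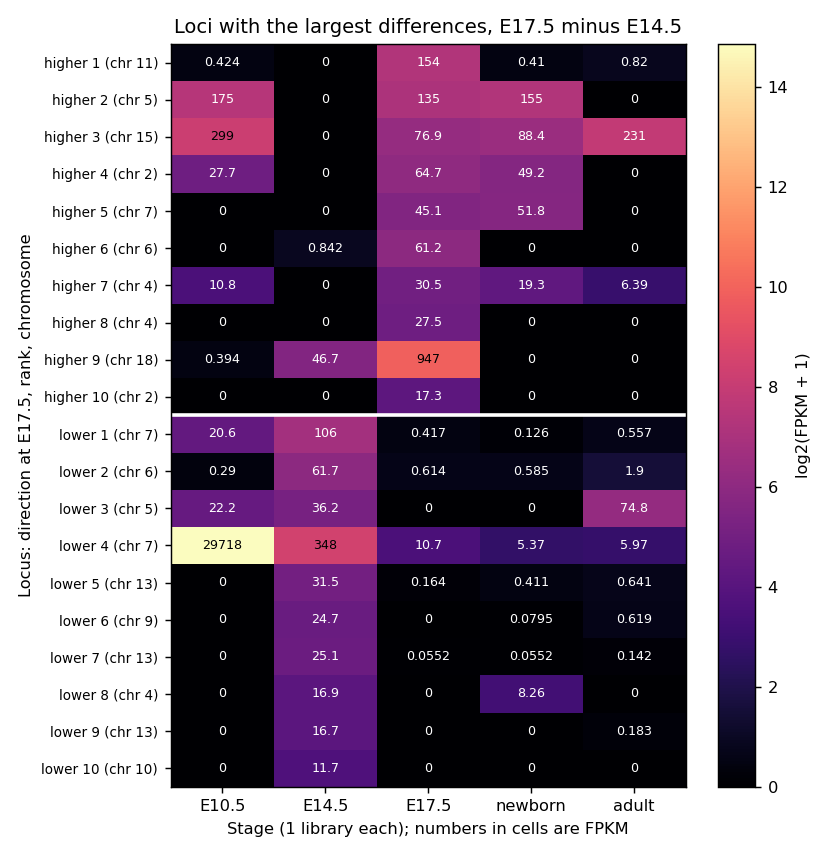
Rows are the 10 loci with the largest higher (top) and lower (bottom) differences among loci with at least 10 FPKM in either library, columns the 5 stages; colour gives log2(FPKM + 1) and the number in each cell is FPKM. The top rows are mostly 0 at E14.5, and most of the bottom rows are high at E14.5 alone.

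Presence in 1 stage only was rare. At least 1 FPKM at E17.5 with under 0.1 at E14.5 was seen at 49 loci, 33 of them listed at 0 at E14.5, with a median of 1.88 FPKM at E17.5. The reverse was seen at 62 loci, 49 of them listed at 0 at E17.5, with a median of 1.91 FPKM at E14.5. Of the 49 loci, 31 were also under 1 FPKM in each of the other 3 libraries, and of the 62 loci, 45 were. A listed 0 can be a failed estimate of the authors' quantification. Of the loci at 0 at E14.5, 4 had at least 1 FPKM at E10.5, E17.5 and in the newborn, and they were between 155 and 203 bases long. Of those at 0 at E17.5, 6 had at least 1 FPKM at E14.5 and in the newborn.

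Some loci in the table share their interval with another. Of the 434 called loci, 147 share theirs with another locus, 2.7% of the 5450 compared loci of this kind, against 3.65% of the 7861 that lie alone. In 2 intervals the calls went both ways. At chr12:8320265-8350630 one locus had 15.3 FPKM at E17.5 and a listed 0 at E14.5, while another had 3.89 FPKM at E17.5 and 19.4 at E14.5. At chr16:4858253-4964277 one locus had 10.2 FPKM at E17.5 and 0.0228 at E14.5, and another had 23.5 FPKM at E17.5 and 60.3 at E14.5. The part of the authors' division of fragments between overlapping loci in these values was not tested.

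A set of longer loci measured in both libraries was taken after the values were seen, as those spanning at least 1 kb with at least 1 FPKM in both libraries and at least 10 FPKM in either. They numbered 6469, of which 86 passed the limit upward (1.33%) and 31 downward (0.479%), with differences from 1.00 to 4.31 and from -4.90 to -1.02. The median of the 86 was 1.31 and that of the 31 was -1.60. The limit of 1 FPKM in both libraries leaves out called loci that were low in 1 of them. All 206 lower loci had a median of 0.507 FPKM at E17.5, and all 228 higher loci one of 1.46 at E14.5. The balance of 86 to 31 thus depends on the limits set. Loci that share an interval were kept, 40 of the 86 and 14 of the 31, as was 1 higher locus without an identifier. The loci named from here on were chosen after their values were seen.

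After chr18:43923980-43927053, the largest differences of the 86 were those of chr11:120590822-120593309, at 53.0 FPKM at E17.5 and 4.24 at E14.5, and of chr17:56219079-56256971, at 18.0 FPKM at E17.5 and 1.20 at E14.5. The chromosome 17 locus stood at 0.122 FPKM at E10.5, 50.2 in newborn and 269 in adult hearts, the highest value of its series. Several other loci followed the same course. The locus at chr13:91992991-92016490 had 96.3 FPKM at E17.5 and 18.9 at E14.5, with 4.65 at E10.5, 150 in newborn and 1967 in adult hearts. The locus at chr15:74809545-75206902 had 22.1 FPKM at E17.5 and 3.78 at E14.5, with 0.633 at E10.5, 42.7 in newborn and 391 in adult hearts. The locus at chr8:15041446-15133541 had 92.0 FPKM at E17.5 and 23.1 at E14.5, with 0.542 at E10.5, 325 in newborn and 485 in adult hearts. These loci were higher in each later library.

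Higher loci of great abundance included 4 that reached over 1000 FPKM at E17.5. The locus at chr7:19996102-20009725 had 2511 FPKM at E17.5 and 955 at E14.5, with 8.03 at E10.5, 2053 in newborn and 2763 in adult hearts. The locus at chr4:129957728-130037190 had 1843 FPKM at E17.5 and 782 at E14.5, with 255 at E10.5, 6562 in newborn and 6561 in adult hearts. The locus at chr15:76827795-76887537 had 1407 FPKM at E17.5 and 552 at E14.5, with 95 at E10.5, 4343 in newborn and 15606 in adult hearts. The locus at chr7:30954940-30983888 had 1350 FPKM at E17.5 and 656 at E14.5, with 324 at E10.5, 1507 in newborn and 6334 in adult hearts. All 4 had their lowest value at E10.5 and their highest, or within 1 FPKM of it, in the adult.

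Of the 86 higher loci, 28 had their highest value of the 5 libraries at E17.5, beside 1645 of all 13311 compared loci. A locus chosen as higher at E17.5 cannot have its highest value at E14.5, so the choice itself raises this count. The 13311 also hold short and low loci that could not be among the 86, so the counts are not matched. The locus at chr4:147359272-147367936 had 945 FPKM at E17.5 and 205 at E14.5, and 451 at E10.5, 90.9 in newborn and 138 in adult hearts. Its neighbour at chr4:147374209-147433660, the most abundant of 3 loci in that interval, had 4419 FPKM at E17.5 and 2306 at E14.5, a difference of 0.94 just under the limit, and 2781 FPKM at E10.5, 758 in newborn and 681 in adult hearts. The loci at chr19:36184840-36195013 (707 FPKM at E17.5 and 332 at E14.5, with 352 at E10.5, 220 in newborn and 280 in adult hearts) and chr9:53698057-53701656 (281 FPKM at E17.5 and 130 at E14.5, with 10.7 at E10.5, 89.2 in newborn and 83.0 in adult hearts) also had their highest value at E17.5. The locus at chr16:17233679-17430919 had 191 FPKM at E17.5 and 46.5 at E14.5, with 8.19 at E10.5, 9.21 in newborn and 92.7 in adult hearts.

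Among the 31 lower loci, those of chromosome 15 at chr15:101858655-101862452 (17.6 FPKM at E17.5 and 87.1 at E14.5) and chr15:101827141-101834773 (20.2 FPKM at E17.5 and 63.5 at E14.5) lie beside each other, and both had their highest value at E14.5 and were under 1 FPKM in the adult. Another locus of the same stretch, at chr15:101974792-101979943, went the other way, with 24.6 FPKM at E17.5 and 6.13 at E14.5. The locus at chr2:90875738-90894077 had 15.5 FPKM at E17.5 and 90.6 at E14.5, with 3.78 at E10.5, 11.3 in newborn and 12.0 in adult hearts. The locus at chr5:100982751-101001224 had 4.92 FPKM at E17.5 and 37.1 at E14.5. The locus at chr18:60963502-60972306 had 1.62 FPKM at E17.5 and 25.1 at E14.5, with 0.376 at E10.5, 2.12 in newborn and 117 in adult hearts.

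Loci that stood far higher at E10.5 lay beside loci abundant at E17.5 and E14.5, though not only there, at a pair of sites. On chromosome 7, chr7:111000267-111001721 (10.7 FPKM at E17.5 and 348 at E14.5) lies close to chr7:110990151-110991676, which had 1.12 FPKM at E17.5, 5.40 at E14.5 and 6900 at E10.5. The other locus there, chr7:110961035-110976756, had 10157 FPKM at E17.5 and 9521 at E14.5 after 1369 at E10.5. Its later values were 1516 FPKM in newborn and 4934 in adult hearts. On chromosome 11, chr11:32176601-32178113 had 3.50 FPKM at E17.5 and 30.4 at E14.5 after 4153 at E10.5. The adjoining chr11:32183671-32197310 had 5260 FPKM at E17.5 and 5002 at E14.5 after 6017 at E10.5. In newborn hearts it had 877 FPKM and in adult hearts 3093. At both sites 1 abundant locus stayed within the 2-fold limit between E17.5 and E14.5 beside loci that were lower at E17.5 than at E14.5. The abundant locus was itself lower at E10.5 than at E14.5 on chromosome 7 and higher on chromosome 11.

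A stretch of chromosome 13 between 21807631 and 22128136, chosen after its values were seen, held mostly differences below 0. Of its 21 compared loci, 20 had a difference below 0 and 4 were past the limit, where 1.55% of all compared loci were lower, with a median of -0.43, against a median of 0.01 over all loci. Their FPKM summed to 2984 at E17.5 and 4378 at E14.5, and to 6397 at E10.5, 1791 in newborn and 146 in adult hearts, lower at each later stage. The most abundant member past the limit was a locus within chr13:21813966-21881081, at 196 FPKM at E17.5 and 432 at E14.5. All 21 loci are under 1 kb long (7) or share an interval (14), and 3 of the 4 past the limit lie in 1 shared interval.

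Of 2737 groups of neighbouring compared loci at most 100 kb apart, 2 held at least 4 lower loci and none higher, both on chromosome 7, and none held 4 higher loci and none lower. At chr7:51480806-51842216, 4 of 13 compared loci were lower, where 1.55% of all compared loci were, from 5.02 FPKM or less at E14.5, with differences between -1.34 and -1.06. At chr7:132586555-135159079, 4 of 75 were lower, against the same 1.55%, led by chr7:133816379-133848405 at 4.47 FPKM at E17.5 and 23.0 at E14.5. With neighbours at most 50 kb apart, 0 groups met this description.

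By chromosome, the share of loci past the limit ran from 2.14% (chromosome 5) to 5.07% (chromosome 15) among the autosomes, against 3.26% of all compared loci. Chromosome 15 had 16 of 513 loci higher (3.12%), and chromosome 13 had 14 of 540 lower (2.59%) and 4 higher (0.741%). On the X chromosome 9 of 421 loci were lower (2.14%, against 1.55% of all) and 1 higher (0.238%, against 1.71% of all), with a median difference of -0.08, and the count was 9 and 1 under each scaling tried.

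The 4 compared loci of the Y chromosome, which only male embryos carry, were all above their E14.5 level at E17.5. The locus at chrY:347054-386694 had 27.8 FPKM at E17.5 and 7.91 at E14.5, and was past the limit. The others had 7.93 FPKM at E17.5 and 5.43 at E14.5 (chrY:234230-293224), 8.78 FPKM at E17.5 and 4.90 at E14.5 (chrY:421633-582199), and 11.9 FPKM at E17.5 and 7.02 at E14.5 (chrY:597214-623056). All 4 were between 10.0 and 28.6 FPKM at E10.5 and under 0.1 FPKM in newborn and adult hearts. The part of the embryos' sex in the values of the X chromosome or of other loci was not tested.

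How the called loci stood in the 3 libraries that did not enter the comparison was counted next. Newborn minus E10.5 shares no library with E17.5 minus E14.5. In it 112 of the 228 higher loci were at least 2-fold higher (49.1%) and 11 lower (4.82%), against 9.41% higher and 7.23% lower over all 13311 loci. Of the 206 lower loci, 18 were higher (8.74%) and 49 lower (23.8%). For adult minus E10.5 the 228 higher loci had 118 higher (51.8%) and 16 lower (7.02%), against 17.3% and 17.8% of all loci, and the 206 lower loci had 38 higher (18.4%) and 50 lower (24.3%). For adult minus newborn the 228 higher loci had 75 higher (32.9%) and 23 lower (10.1%), and the 206 lower loci had 31 higher (15%) and 34 lower (16.5%), against 8.23% and 9.39% of all loci. The higher loci had a median of 8.66 FPKM at E17.5 and 1.46 at E14.5, with 0.677 at E10.5, 3.94 in newborn and 5.85 in adult hearts. The lower loci had a median of 0.507 FPKM at E17.5 and 3.93 at E14.5, with 0.656 at E10.5, 0.555 in newborn and 0.621 in adult hearts. The E17.5 and E14.5 medians follow from how the loci were chosen.

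The loci over 1 kb with measurable values in both libraries carried this further. Of the 86 higher ones, 66 were higher in newborn minus E10.5 (76.7%) and 4 lower, against 9.57% and 6.94% of the 6469 loci that met the same limits. In adult minus E10.5, 72 were higher (83.7%), and in adult minus newborn, 43 (50%) were higher, against 18.3% and 7.36%. Of the 31 lower ones, 15 were lower in newborn minus E10.5 (48.4%) and 4 higher, 19 were lower in adult minus E10.5 (61.3%), and 16 in adult minus newborn (51.6%), against 6.94%, 18.5% and 10% of the 6469. These 3 steps share libraries with each other and are not independent of one another.

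**Figure D5:**
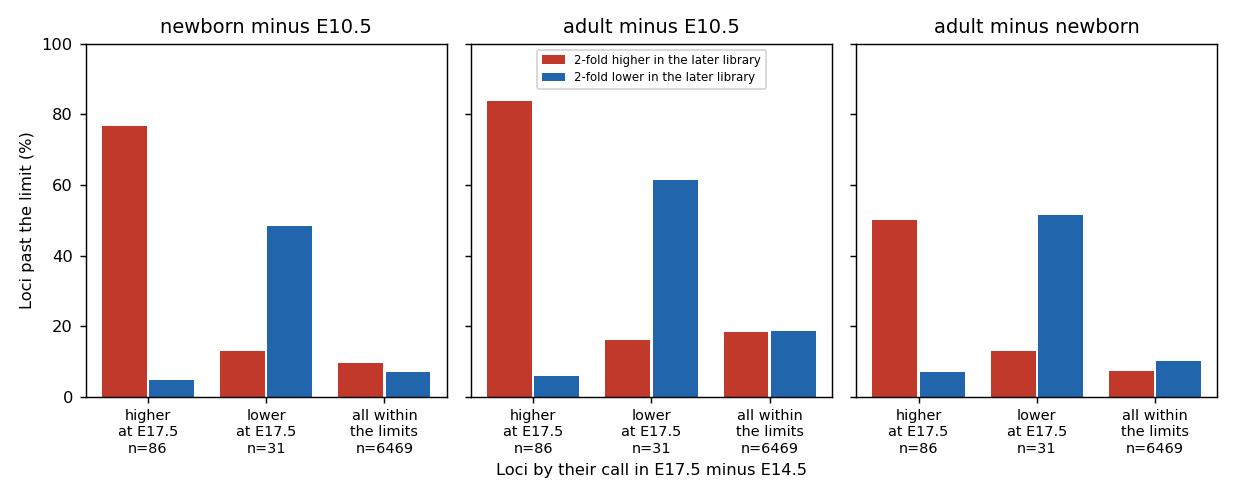
Bars give the percentage of loci at least 2-fold higher (red) or lower (blue) in each of 3 comparisons that use neither E17.5 nor E14.5, for the 86 higher loci, the 31 lower loci and all 6469 loci over 1 kb with at least 1 FPKM in both fetal libraries and 10 in either. Of the 86 higher loci 76.7% were higher in newborn minus E10.5, against 9.57% of all 6469.

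Some called loci were low in all 3 libraries outside the comparison. Of the 228 higher loci, 57 (25%) were under 1 FPKM in each of E10.5, newborn and adult, and of the 206 lower loci, 74 (35.9%) were, while 3.1% of all compared loci were. Of the 57, 52 were also under 1 FPKM at E14.5, and of the 74, 69 were also under 1 FPKM at E17.5. Loci with at least 1 FPKM in any of the 5 libraries numbered 15102. Of these, 61 stood at least 2-fold above all 4 other libraries at E17.5 and 76 at E14.5, beside 170 at E10.5, 78 in newborn and 1310 in adult hearts. At least 2-fold below all 4 others stood 3 loci at E17.5 and 4 at E14.5, beside 284 at E10.5, 12 in newborn and 885 in adult hearts.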

How the data were processed

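Hearts were frozen and RNA extracted with Trizol, per the labels' protocols. The library protocol given there is for small RNA; the preparation of the long RNA libraries, and whether it keeps strand, are not stated in the sources used here. The authors deposited FPKM values per assembled locus, per the file headers. The build is mm9, and HISAT, HISAT2, Bowtie, Bowtie2 and RSEM are named without versions or roles, per the submitters' processing notes. Of 35299 loci, 10578 share an interval with another and 8534 carry no transcript identifier. The name tables and sequence tables used here describe GRCm38.p6, so no coordinate was converted, the gene lists could not be applied and no sequence is shown.

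Differences of log2(FPKM + 1) were computed in Python (version 3.11.15) with pandas 2.3.3 for loci with at least 1 FPKM at either stage. A pseudocount of 1 understates differences of low loci. The 2-fold limit is a rule of size. Named loci are the 10 largest differences in each direction with at least 10 FPKM in either library, with at most 2 identifiers printed in each direction; loci chosen later are marked as such. Members, limits and alternatives were chosen with earlier results of these data known. The calculation was tested on simulated data. The small RNA libraries were not used here. Pseudocounts, filters, limits and scalings were varied.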

Additional observations from a re-analysis of the deposited data

How the results depend on the processing

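The 20 named loci kept their direction and stayed past the limit in all 60 values under pseudocounts of 0.1 and 5 and median-ratio scaling. They were chosen as the largest differences, and the median log2 ratio behind that scaling was only 0.00777. This outcome was thus largely set by the choice of loci and is no check on them. Counts of higher and lower loci, 228 and 206 as reported, were 441 and 410 with a pseudocount of 0.1, 79 and 51 with one of 5, 105 and 52 with at least 10 FPKM in either library, and 36 and 49 at a 4-fold limit. They were 223 and 208 under median-ratio scaling, 182 and 234 with the same summed nuclear FPKM without the 10 most abundant loci, and 141 and 146 for loci alone in their interval. The excess of higher over lower calls thus turned round at the 4-fold limit, in the nuclear scaling and for loci alone in their interval. The median difference was 0.0333 with at least 10 FPKM, -0.00163 under median-ratio scaling, -0.00916 at the same summed FPKM, -0.116 in the nuclear scaling and -0.0101 for loci alone in their interval. The count of mitochondrial loci past the limit was 1 in the nuclear scaling, which was added after seeing the data for this count. Groups of neighbouring lower loci numbered 0 at 50 kb. The cause of these moves was not tested beyond what each setting does by construction. No paired analysis was possible because each stage has 1 library. Without replicates no spread between animals is known.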
